A study of Mus musculus with 36 samples.

Results

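The 9 genes described here encode surface molecules through which a dendritic cell (DC) raises or restrains the response of T cells or, for *Cd200*, of myeloid cells. *Cd80*, *Cd86*, *Cd83*, *Cd40*, *Icosl* and *Tnfsf4* are placed on the costimulatory side, and *Cd274*, *Pdcd1lg2* and *Cd200* on the coinhibitory side. Each was taken from the deposited array table where the platform annotation gives 1 symbol for a transcript cluster (the probe group that stands for a gene). Of several clusters of a symbol, that with the greatest mean level in the 36 arrays was used. All 9 were found among the 19938 genes tested in this way. Only *Cd80* had another cluster, whose difference between TM+ and TM- DCs was -0.27 on the log2 scale (SE 0.24, adjusted p = 0.408).

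Bone marrow of Balb/c mice aged 10 to 12 weeks gave rise to all DCs in culture with 100 ng/ml of granulocyte-macrophage colony-stimulating factor (GM-CSF), harvested on day 6. Treated cultures received 200 nM of soluble recombinant human thrombomodulin (sTM) from day 4, and untreated cultures did not. Sorted DCs had been separated with an antibody to thrombomodulin (TM, CD141) and magnetic beads into TM+ and TM- DCs, so that the TM+ cells carried the antibody. The sorted arrays hold both fractions from sTM-treated cultures (6 arrays each, 2 in each of experiments 2, 3 and 4) and from untreated cultures (4 arrays each, 2 in each of experiments 3 and 4). The 16 arrays of unsorted DCs hold 8 of untreated and 8 of sTM-treated cultures, with 4 of each in experiment 1 and 2 of each in experiments 2 and 3. Arrays are named here by experiment and replicate number, such as 3-1. The labels call them biological replicates, but separate cultures or mice are not stated, so that p-values measure the spread between arrays, which may be technical. All values are log2 of the deposited intensities, in which a difference of 1 is a 2-fold change, and a level is not comparable between genes.

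*Itgax*, which encodes the DC integrin CD11c, lay between 11.72 and 12.35 in all 36 arrays. *Thbd*, the gene of TM itself, lay between 5.76 and 6.92 in untreated TM+ DCs and between 5.65 and 6.06 in untreated TM- DCs. These TM+ arrays read 6.66 and 6.92 in experiment 3 but 5.84 and 5.76 in experiment 4. In sTM-treated cultures *Thbd* lay between 5.84 and 6.26 in TM+ DCs and between 5.75 and 6.5 in TM- DCs. Its difference over all sorted arrays did not pass the test (0.24, adjusted p = 0.12). Some arrays stood apart from others of their group. In the unsorted arrays of experiment 1, *Ccr2*, a monocyte chemokine receptor, read 10.25 and 10.39 in untreated arrays 1-1 and 1-2 but 6.25 and 6.12 in 1-3 and 1-4, and 11.4 and 11.22 against 5.78 and 6.18 in the sTM-treated arrays of the same numbers. Among sorted arrays, the sTM-treated ones of experiment 3 differed from those of experiments 2 and 4 in several of the 9 genes. Results that these sets moved are given without them as well.

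T cells need, besides the signal of the antigen receptor, a further signal from the cell that presents the antigen. CD80 and CD86, of the B7 family, bind CD28 on the T cell and, with higher affinity, its inhibitory relative CTLA-4. CD40 receives the CD40 ligand of activated T cells, acts through TRAF adaptors and NF-kB, and raises the other costimulatory molecules during maturation. CD83 marks mature DCs and keeps MHC class II and CD86 on their surface. ICOS ligand (*Icosl*) and OX40 ligand (*Tnfsf4*) act on T cells that have already been activated, whereas PD-L1 (*Cd274*) and PD-L2 (*Pdcd1lg2*) restrain T cells through PD-1, and CD200 restrains myeloid cells that carry its receptor.

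The promoters of 3 genes are shown because their genes behaved differently in the sort. They are *Cd274* and *Pdcd1lg2*, neighbours on chromosome 19 that bind the same receptor, and *Icosl*. In the fit of all sorted arrays *Icosl* alone was higher in TM+ DCs, which did not hold under 13 of 34 other settings. Each is the 250 bases before a start annotated in RefSeq (GRCm38.p6), 5′ to 3′ on the gene's strand. For *Cd274* the start used lies inside the annotated span of the gene (29362107 to 29388095), so that its window is not upstream of the whole gene. Both strands were searched for the NF-kB consensus, for GAAANNGAA (an interferon regulatory factor element) and for TTCNNNGAA (a STAT element). Capitals mark the matches, which in *Cd274* is GAAANNGAA read on the opposite strand, and in the other promoters the NF-kB consensus.
Cd274, chr19:29367188-29367437, plus strand: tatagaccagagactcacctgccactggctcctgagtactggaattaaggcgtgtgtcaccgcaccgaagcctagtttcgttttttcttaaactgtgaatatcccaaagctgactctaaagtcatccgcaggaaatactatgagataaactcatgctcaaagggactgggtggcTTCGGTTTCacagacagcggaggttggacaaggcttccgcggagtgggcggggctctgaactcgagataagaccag
Pdcd1lg2, chr19:29410669-29410918, plus strand: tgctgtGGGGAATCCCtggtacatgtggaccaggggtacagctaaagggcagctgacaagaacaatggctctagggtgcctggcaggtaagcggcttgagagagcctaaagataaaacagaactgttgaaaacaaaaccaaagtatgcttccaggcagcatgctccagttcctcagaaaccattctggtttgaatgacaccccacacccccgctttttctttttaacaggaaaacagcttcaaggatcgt
Icosl, chr10:78069118-78069367, plus strand: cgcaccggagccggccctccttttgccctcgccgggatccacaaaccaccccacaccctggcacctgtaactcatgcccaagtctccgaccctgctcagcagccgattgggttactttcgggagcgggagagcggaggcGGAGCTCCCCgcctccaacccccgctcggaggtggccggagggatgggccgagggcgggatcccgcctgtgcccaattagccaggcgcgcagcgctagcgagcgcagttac
The match lay at positions -76 to -68 from the start used in *Cd274*, at -244 to -235 on both strands in *Pdcd1lg2* and at -111 to -102 on the opposite strand in *Icosl*. Of 32851 mouse promoters of this length, 7.25% held the NF-kB consensus, 7.13% GAAANNGAA and 7.02% TTCNNNGAA. The promoters of *Cd80* and *Cd200* held none of these letters. *Cd83*, *Cd40*, *Cd86* and *Tnfsf4* are named only. A match describes the letters and not a bound site.

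The first comparison asked how DCs that carry TM differ from those of the same cultures that do not. As the mean of untreated and sTM-treated cultures, 7 of the 9 genes were lower in TM+ DCs (*Cd200*, *Cd83*, *Cd40*, *Cd274*, *Tnfsf4*, *Cd80* and *Cd86*), 1 was higher (*Icosl*), and *Pdcd1lg2* did not pass. Among all genes tested 18.7% were lower and 18.6% higher at the same threshold of an adjusted p under 0.05 (limma, Benjamini-Hochberg over all genes). The median difference of the 9 genes was -0.92, beside -0.08 for all genes. Centring each array on its 75th percentile moved the median of all genes to -0.20 and their split from 3709 higher and 3729 lower to 2941 higher and 9040 lower. The 7 genes were lower under that scaling as well, *Pdcd1lg2* then passed (-0.29, adjusted p = 0.0141) and *Icosl* did not. Without the sTM-treated sorted arrays of experiment 3, 6 of the 9 were lower and 1 higher (3499 and 3950 of all genes). The lower genes lay on both sides of the costimulatory and coinhibitory division. In sorted pools, fewer cells of a type and less RNA per cell cannot be told apart.

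*Cd83* gave the widest separation among the costimulatory genes. In untreated cultures it read 8.57, 8.67, 9.33 and 9.48 in TM+ DCs and 11.16, 11.19, 11.89 and 11.99 in TM- DCs (arrays 3-1, 3-2, 4-1 and 4-2). In sTM-treated cultures the lowest, median and highest values were 9.03, 9.18 and 11.19 in TM+ DCs and 11.24, 11.75 and 11.84 in TM- DCs. The fractions did not overlap in either kind of culture, although the sTM-treated TM+ arrays of experiment 3 (10.84 and 11.19) came close to the TM- range. The fitted difference was -2.19 (SE 0.24, 4.58-fold lower, adjusted p = 3.17e-07).

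*Cd40*, the receptor for T cell help, read 7.73, 7.62, 8.67 and 8.71 in untreated TM+ DCs and 9.48, 9.5, 10.51 and 10.61 in untreated TM- DCs. In sTM-treated cultures the lowest, median and highest values were 7.68, 8.27 and 10.26 in TM+ DCs and 9.48, 10.65 and 11.48 in TM- DCs. The untreated fractions stood apart, and the sTM-treated ones overlapped through the experiment 3 arrays (10.12 and 10.26 in TM+ DCs), which exceeded the experiment 2 values of TM- DCs (9.48 and 9.55). Within each experiment and treatment TM+ DCs were lower, by 1.23 to 2.92. The fitted difference was -1.82 (SE 0.32, 3.54-fold lower, adjusted p = 0.000109).

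The B7 ligands were both lower in TM+ DCs, and the difference between the pair was not tested. *Cd80* read 10.56, 10.53, 10.50 and 10.53 in untreated TM+ DCs and 11.59, 11.59, 11.06 and 11.03 in untreated TM- DCs. In sTM-treated cultures it ranged from 9.27 to 11.33 (median 10.35) in TM+ DCs and from 10.61 to 11.84 (median 11.30) in TM- DCs. It was lower in TM+ DCs by 0.83 (SE 0.15, 1.77-fold, adjusted p = 0.000201), with a lower mean in all 5 combinations of experiment and treatment. The arrays of the fractions overlapped in 1 of these, the sTM-treated cultures of experiment 3.

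*Cd86* read 10.68, 10.67, 10.45 and 10.39 in untreated TM+ DCs and 11.14, 11.09, 10.16 and 10.11 in untreated TM- DCs, so that TM+ DCs were lower in experiment 3 and higher, by 0.29, in experiment 4. With sTM it ranged from 9.58 to 10.75 (median 10.25) in TM+ DCs and from 10.18 to 11.55 (median 10.68) in TM- DCs. The fitted difference was -0.36 (SE 0.11, adjusted p = 0.0174). The call was lost without experiment 3 (-0.14, adjusted p = 0.259) or only its sTM-treated sorted arrays (-0.32, adjusted p = 0.0501). With all arrays it was also lost with no experiment term (adjusted p = 0.195), with either block by replicate number (adjusted p = 0.0634 and 0.0937) and with array weights (-0.14, adjusted p = 0.0899). In sTM-treated cultures alone *Cd86* was lower by 0.65 (SE 0.15, adjusted p = 0.00287), and in untreated cultures alone the value was -0.08 (95% interval -0.45 to 0.29).

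The ligands of activated T cells had fitted differences of opposite sign, and the difference between the pair was not tested. The call of *Icosl* did not hold under 13 of 34 other settings. *Tnfsf4*, OX40 ligand, read 5.80, 5.84, 7.24 and 7.17 in untreated TM+ DCs and 7.20, 6.84, 7.49 and 7.36 in untreated TM- DCs. After sTM treatment the gene ranged from 6.80 to 7.53 (median 7.05) in TM+ DCs and from 7.86 to 8.45 (median 8.23) in TM- DCs, with no overlap. The fitted difference was -0.92 (SE 0.15, 1.89-fold lower, adjusted p = 7.02e-05).

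*Icosl* read 9.05, 9.19, 9.33 and 9.41 in untreated TM+ DCs and 8.93, 8.63, 9.15 and 9.24 in untreated TM- DCs. Under sTM its values ranged from 9.13 to 9.61 (median 9.43) in TM+ DCs and from 8.38 to 9.61 (median 8.90) in TM- DCs. It was higher in TM+ DCs by 0.33 (SE 0.12, 1.25-fold, adjusted p = 0.033), in 4 of 5 combinations of experiment and treatment. In sTM-treated cultures of experiment 3 it was -0.10. The call did not survive leaving out 7 of the 20 arrays singly, namely TM- sTM-treated 2-1, 4-1 and 4-2, TM+ sTM-treated 2-1, TM- untreated 3-2 and TM+ untreated 4-1 and 4-2 (0.26 to 0.31, adjusted p from 0.0513 to 0.0909), or centring each array on its 75th percentile (0.21, adjusted p = 0.0802).

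Among the coinhibitory genes, *Cd200* and *Cd274* were lower in TM+ DCs. *Cd200* read 7.59, 7.65, 6.99 and 7.08 in untreated TM+ DCs and 9.92, 9.77, 9.77 and 9.75 in untreated TM- DCs, a gap far wider than the spread of either group. In treated cultures it ranged from 6.17 to 9.56 (median 7.39) in TM+ DCs and from 8.87 to 10.66 (median 9.70) in TM- DCs, and the overlap came from the TM+ arrays of experiment 3 (9.36 and 9.56). The fitted difference, -2.23 (SE 0.27, 4.71-fold lower, adjusted p = 1.64e-06), was the largest in size of the 9 genes.

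*Cd274*, PD-L1, read 12.24, 12.28, 10.98 and 11.16 in untreated TM+ DCs and 12.97, 13.05, 13.03 and 13.08 in untreated TM- DCs. With sTM its values ranged from 11.23 to 12.86 (median 11.73) in TM+ DCs and from 12.77 to 13.18 (median 12.96) in TM- DCs. TM- DCs were nearly uniform over experiments, whereas TM+ DCs were lower in experiment 4 than in experiment 3. The fitted difference was -1.19 (SE 0.16, 2.28-fold lower, adjusted p = 4.85e-06).

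*Pdcd1lg2*, PD-L2, read 10.69, 10.74, 10.95 and 10.95 in untreated TM+ DCs and 11.28, 11.27, 10.59 and 10.51 in untreated TM- DCs. In sTM-treated DCs the gene ranged from 10.72 to 11.26 (median 11.04) in TM+ DCs and from 10.85 to 11.63 (median 11.37) in TM- DCs. The difference of -0.18 (95% interval -0.39 to 0.03, adjusted p = 0.157) did not pass the test, and the sign differed between the untreated cultures of experiment 3 (-0.56) and experiment 4 (0.40). Without experiment 4 the gene was lower by 0.46 (adjusted p = 0.00485), and without experiment 3 the value was 0.06.

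**Figure D1:**
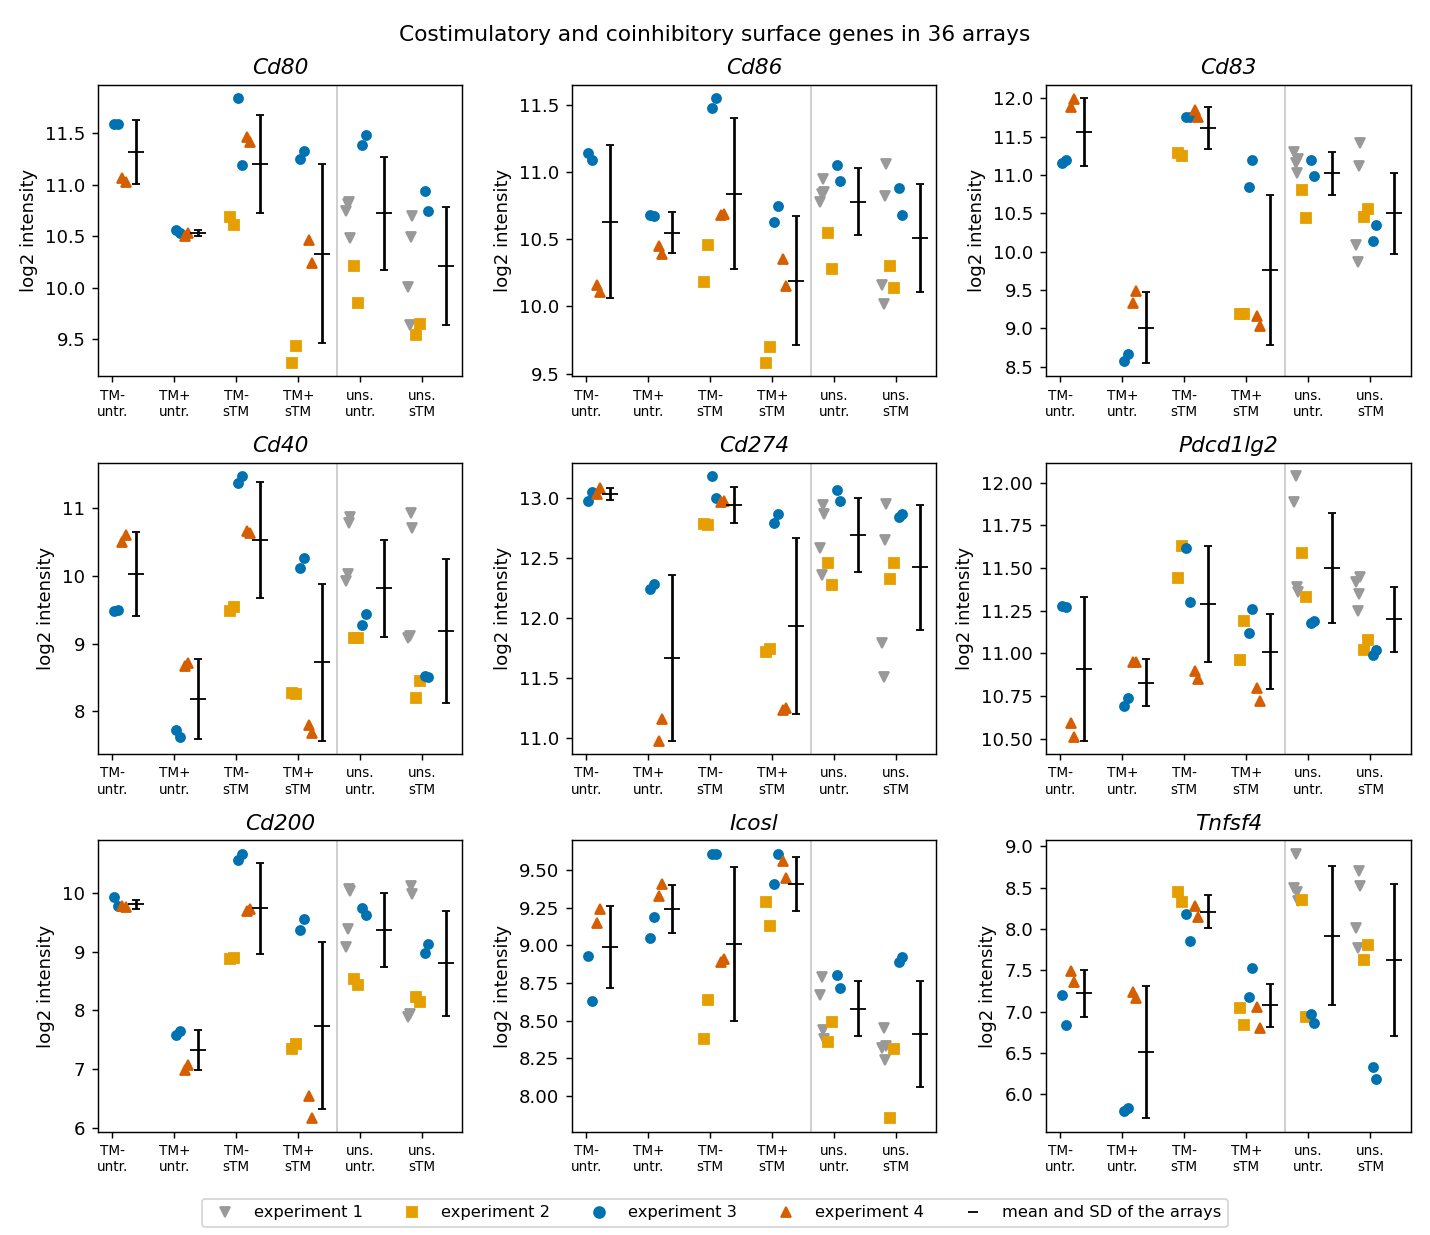
Level of each of the 9 genes (log2 intensity, vertical axis) in every array, by fraction and treatment (uns., unsorted; untr., untreated; sTM, sTM-treated), with symbols and colours for the experiments and bars for the mean and SD of the arrays in a group. In untreated *Cd83* the TM+ arrays (8.57 to 9.48) lie below all TM- arrays (11.16 to 11.99), while the sTM-treated TM+ arrays of experiment 3 lie above those of experiments 2 and 4 in *Cd83*, *Cd40*, *Cd200*, *Cd80* and *Cd274*.

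The sort was also read within each kind of culture. In untreated cultures 6 genes were lower and 0 higher in TM+ DCs (all genes tested: 7.93% lower, 13.2% higher), and in sTM-treated cultures 7 were lower and 0 higher (12.4% and 11.6%). *Cd83*, *Cd200*, *Cd40*, *Cd274*, *Tnfsf4* and *Cd80* were lower in both, and *Cd86* passed only in the sTM-treated cultures. Whether these differences changed with sTM was tested as an interaction, in which 0 of the 9 genes and 0.01% of all genes passed (1 and 1227 genes at an unadjusted p under 0.05). That 1 was *Cd86*, with -0.57 (adjusted p = 0.686). The untreated call of *Cd80* was lost without TM+ array 3-1 or 3-2 (adjusted p = 0.0513 and 0.0563) and under 5 other alternatives (adjusted p up to 0.212), and that of *Cd274* without experiment 4 (-0.75, adjusted p = 0.0795). In sTM-treated cultures *Cd80* was lost without experiment 4 (-0.76, adjusted p = 0.0812), and with no experiment term, which lost *Cd86* too and left 5 lower genes. The untreated call of *Tnfsf4* was lost without TM- arrays 3-1, 4-1 or 4-2 or TM+ arrays 3-1 or 3-2 (-0.72 to -0.51, adjusted p from 0.0737 to 0.147), and under 5 other alternatives (adjusted p up to 0.218, without experiment 3). *Icosl* in sTM-treated cultures was 0.40 (adjusted p = 0.0541) and passed without the sTM-treated sorted arrays of experiment 3 (0.65, adjusted p = 0.000229). It also passed without TM- sTM-treated array 3-1 (0.50, adjusted p = 0.0143) or 3-2 (0.50, adjusted p = 0.0127) or TM- untreated array 3-2 (0.40, adjusted p = 0.0477).

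**Figure D2:**
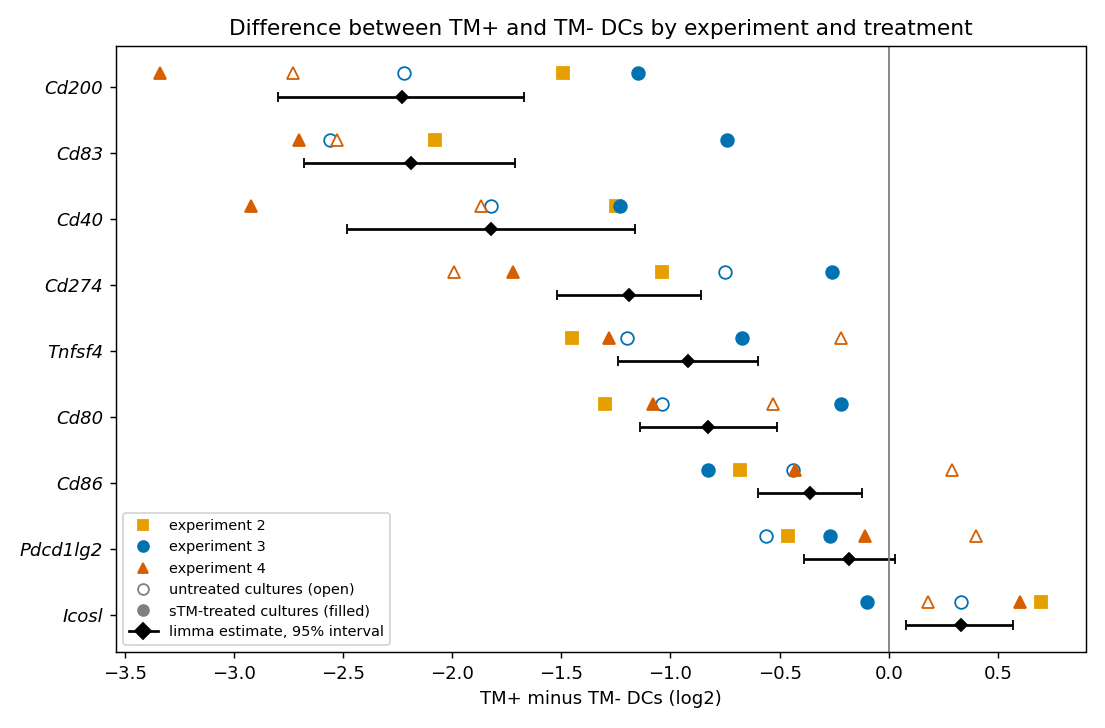
Difference between TM+ and TM- DCs (log2, horizontal axis) for each gene, with 1 symbol for each combination of experiment and treatment (open, untreated; filled, sTM-treated) and a diamond with bar for the limma estimate and its 95% interval. *Cd200*, *Cd83*, *Cd40*, *Cd274*, *Tnfsf4* and *Cd80* lie left of 0 in all 5 combinations, and *Icosl* lies right of 0 in 4 of them.

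Genes around the 9 were read from lists of related ligands, receptors and signaling molecules. Of 16 measured genes of CD40 and NF-kB signaling, 14 were lower in TM+ DCs and 0 higher, with a median difference of -0.72. They included *Traf1* (-2.24), an adaptor of TNF receptors, *Tnfaip3* (-1.58), which ends NF-kB signaling, *Cflar* (-1.47), which blocks caspase-8, and *Nfkb2* (-1.29), a subunit of the noncanonical pathway. Of 21 measured genes of DC maturation, 16 were lower and 2 higher (median -0.57). The lower ones included *Ccl5* (-2.32), a T cell chemokine, *Gadd45b* (-2.32), a stress response gene, *Ccr7* (-1.41), the receptor that leads mature DCs to lymph nodes, and *Il15ra* (-1.41), which presents interleukin-15. The 2 higher ones were *Cd209a* (0.57), a DC lectin, and *Cd63* (0.48), a tetraspanin. *Relb* (-0.57) stands in both lists.

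Of 16 measured regulators in the interferon, IRF and JAK-STAT pathways, 10 were lower, among them *Stat5a* (-1.48), *Socs3* (-1.37), a feedback inhibitor of cytokine receptors, *Stat5b* (-1.07) and *Irf8* (-0.77), and 3 were higher, *Ifngr1* (0.80), *Irf2* (0.34) and *Irf5* (0.19), with a median of -0.34. Of 18 adhesion and SLAM family genes, 8 were lower, led by *Slamf1* (-1.48), *Slamf6* (-1.46), *Slamf7* (-1.40) and the integrin chain *Itga4* (-1.31), and 3 were higher, *Cd244a* (1.35), *Cd84* (1.00) and *Slamf9* (0.73), with a median of -0.05.

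The relatives of the 9 genes showed no such shift to one side. Of 16 other B7, butyrophilin and nectin family ligands and partners, 4 were higher in TM+ DCs, *Cd24a* (1.49), *Btla* (1.32), *Ceacam1* (0.90) and *Nectin3* (0.30), and 3 lower, *Pvr* (-1.53), *Nectin2* (-0.42) and *Btn1a1* (-0.22), with a median of -0.04. Of 14 measured TNF superfamily ligands other than *Tnfsf4*, 3 were higher, *Tnfsf8* (1.18), *Ltb* (1.02) and *Tnfsf14* (0.82), and 3 lower, *Tnfsf15* (-2.55), *Tnfsf9* (-1.44), the ligand of 4-1BB, and *Cd70* (-0.86), the ligand of CD27. Of 9 genes of receptors of the members and relatives of these receptors, 4 were higher and 2 lower. The higher ones were the CD200 receptor family genes *Cd200r3* (1.73), *Cd200r4* (1.5), *Cd200r1* (1.49) and *Cd200r2* (1.18). The lower ones were *Icos* (-0.59) and *Ctla4* (-0.22). Whether the product of each CD200 receptor family gene binds CD200 was not tested. The CD200 receptor genes are closely related, so that their probes may share signal. *Cd200* itself was lower by 2.23 in the same fraction.

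**Figure D3:**
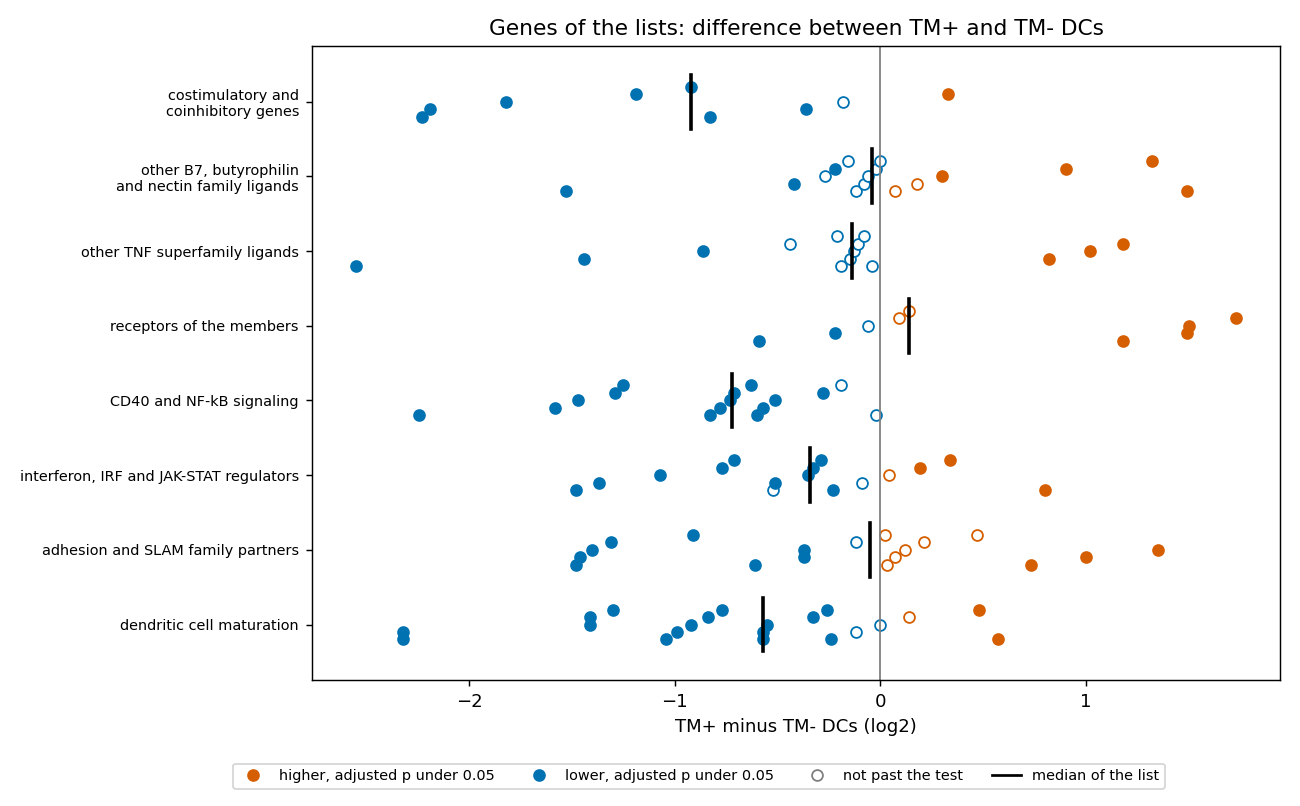
Difference between TM+ and TM- DCs (log2, horizontal axis) of each measured gene of the lists, with filled points past the test, open points not past it and a bar at the median of a list. The medians were -0.92 for the 9 genes, -0.72 for CD40 and NF-kB signaling and -0.57 for DC maturation, and between -0.14 and 0.14 for the lists of other ligands, receptors and adhesion partners.

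Markers of other bone marrow cells moved with the sort. Of 12 neutrophil genes 10 were higher in TM+ DCs (median 1.03, with *Cxcr2* 2.48, *Ngp* 2.17, *S100a9* 2.16 and *S100a8* 2.15), and the mean of the list ranged from 8.97 to 9.66 in untreated TM+ DCs and from 7.47 to 8.06 in untreated TM- DCs. In sTM-treated cultures it ranged from 7.5 to 9.16 in TM+ DCs and from 7.06 to 7.99 in TM- DCs. Of 12 monocyte and macrophage genes 8 were higher, led by *Ccr2* (4.04), *Mrc1* (2.76) and *C1qb* (1.97), and 1 lower (*Cd14*, -0.87). The mean of that list ranged from 9.71 to 9.84 in TM+ and from 8.5 to 8.98 in TM- DCs of untreated cultures, and from 9.47 to 9.86 and from 8.71 to 8.80 in sTM-treated ones. Of 12 genes of conventional DCs 8 were higher, led by *Kmo* (2.06), *Dpp4* (0.88), *Ciita* (0.82) and *H2-Ab1* (0.59), with *Itgax* at 0.28. The 3 lower ones were *Batf3* (-1.05), *Zbtb46* (-0.38) and *Irf4* (-0.29). No list for B cells, T and NK cells, mast cells or plasmacytoid DCs had more than 1 gene changed in a direction in the mean of both kinds of culture, and in sTM-treated cultures alone 2 mast cell and 2 plasmacytoid DC genes were lower. The part of these cells in the differences of the 9 genes was not tested.

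The second comparison asked what sTM did to the DCs during the last days of culture. In sorted DCs, sTM-treated arrays of experiments 2, 3 and 4 were set against untreated arrays of experiments 3 and 4. Experiment 2 had no untreated sorted DCs, so that these estimates are not purely differences within experiments. None of the 9 genes passed the test with limma in TM+ DCs (0.853% of all genes did), in TM- DCs (0.0%) or in the mean of both fractions (0.015%). At an unadjusted p under 0.05 there were 2 of the 9 genes and 2026 of all genes in TM+ DCs, 3 and 722 in TM- DCs, and 3 and 1607 in the mean. In TM+ DCs these were *Cd83*, with a difference of 0.92 (SE 0.34, adjusted p = 0.278), and *Tnfsf4*, with 0.55 (SE 0.22, adjusted p = 0.348). In TM- DCs they were *Tnfsf4*, with 0.98 (SE 0.22, adjusted p = 0.998), *Cd86* (0.41) and *Pdcd1lg2* (0.32). The 76 higher and 94 lower of all genes in TM+ DCs became 8 and 20 without TM+ sTM-treated array 3-2, 122 and 161 without 4-1, and 189 and 123 without 4-2. Without the sTM-treated sorted arrays of experiment 3, 0 of the 9 genes passed in any of the 3 comparisons. *Tnfsf4* came nearest to a call in the mean of both fractions (0.77, SE 0.16, adjusted p = 0.099). It passed there with experiment as a fixed factor (0.76, adjusted p = 0.0496).

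The genes of the related lists that passed in TM+ DCs were *Btla* (-1.52, adjusted p = 0.0478), an inhibitory receptor, *Cd244a* (-1.15, adjusted p = 0.0224), a SLAM family receptor, and *Cd81* (0.54, adjusted p = 0.0492), a tetraspanin. The neutrophil granule and calprotectin genes *Ltf* (-2.19), *S100a9* (-1.91), *Camp* (-1.28) and *Elane* (-0.58) fell in the same comparison. So did the macrophage complement gene *C1qb* (-1.12, adjusted p = 0.009) and *Ciita* (-0.82, adjusted p = 0.0173), the regulator of MHC class II genes. The part of other cells in the values of the 9 genes was not tested.

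In TM+ DCs, 7 of the 9 genes differed in opposite directions in experiments 3 and 4, a count that was not made over all genes. In experiment 3 all 9 genes had higher means with sTM, by 0.01 to 2.52, beside 7285 of all 19938 genes. In experiment 4, 7 of 9 had lower means, with differences from -0.95 to 0.17, beside 10118 of all genes. *Cd274* (0.57 and 0.17) and *Icosl* (0.39 and 0.13) were above 0 in both. In TM- DCs, 8 of 9 had higher means with sTM in experiment 3 and 5 of 9 in experiment 4 (medians 0.58 and 0.09). Most of all genes were also higher in TM- DCs of experiment 3, 13178 of 19938 (median 0.09). In experiment 4 there were 8870 (median -0.02). In TM+ DCs *Cd40* read 7.73 and 7.62 without and 10.12 and 10.26 with sTM in experiment 3. In experiment 4 it read 8.67 and 8.71 without and 7.80 and 7.68 with sTM. *Cd83* read 8.57 and 8.67 against 10.84 and 11.19 in experiment 3, and 9.33 and 9.48 against 9.16 and 9.03 in experiment 4. *Cd200* read 7.59 and 7.65 against 9.36 and 9.56, and then 6.99 and 7.08 against 6.55 and 6.17. For these genes the arrays with and without sTM did not overlap in either experiment, and the sign turned between them. Each side held only 2 arrays, and in TM+ DCs 8 of the 9 genes did not overlap in experiment 3 and 9 in experiment 4. The share of all genes without overlap was not counted.

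The difference between the experiments was tested in a comparison added after the data had been seen, with 8 groups of 2 arrays (fraction, treatment and experiment). Its p-values measure the spread of arrays within these groups and not the spread between experiments, which have no replicates. In TM+ DCs the effect of sTM in experiment 3 exceeded that in experiment 4 for 6 of the 9 genes, beside 3.98% of all genes, and fell short of it for 0, beside 3.0%. *Cd40* differed by 3.47 (SE 0.15, adjusted p = 5.78e-10), *Cd83* by 2.71 (SE 0.17, adjusted p = 3.13e-08), *Cd200* by 2.52 (SE 0.18, adjusted p = 1.03e-07) and *Tnfsf4* by 1.81 (SE 0.22, adjusted p = 3.54e-05). *Cd80* (0.91, adjusted p = 0.0169) and *Pdcd1lg2* (0.66, adjusted p = 0.0176) were lost without any one of 6 arrays, namely TM+ untreated 3-1, 3-2, 4-1 and 4-2 and TM+ sTM-treated 3-2 and 4-2 (0.80 to 0.92 for *Cd80*, 0.59 to 0.69 for *Pdcd1lg2*). *Cd274* (0.40, adjusted p = 0.157) passed without TM- sTM-treated array 3-1 or 3-2 (adjusted p = 0.049 in each).

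In TM- DCs 4 of the 9 genes differed in the same direction, beside 3.24% of all genes, and 0 in the other, beside 2.29%. *Cd40* differed by 1.84 (SE 0.15, adjusted p = 2.06e-06), from sTM differences of 1.93 in experiment 3 and 0.09 in experiment 4. *Icosl* differed by 1.12 (SE 0.17, adjusted p = 0.000715), *Cd200* by 0.83 (SE 0.18, adjusted p = 0.0121) and *Cd83* by 0.72 (SE 0.17, adjusted p = 0.022). *Cd200* was lost without TM- sTM-treated array 4-1 (0.81, adjusted p = 0.0639), and *Cd83* without any one of TM- untreated 3-1, 4-1 and 4-2 and TM- sTM-treated 4-1 and 4-2 (0.67 to 0.77, adjusted p from 0.0508 to 0.103). Without TM- sTM-treated array 3-1, *Cd80* passed in the other direction (-0.79, adjusted p = 0.00135), and the counts over all genes rose from 645 higher and 457 lower to 4321 and 1530. The sTM differences of *Tnfsf4* in TM- DCs were 1.00 and 0.79, and their fitted difference of 0.22 had a 95% interval of -0.25 to 0.68.

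The effect of sTM in TM+ DCs differed between the experiments for genes of the related lists as well. The values here are that effect in experiment 3 minus that in experiment 4, and not levels. The effect was higher in experiment 3 for 10 of 21 maturation genes, among them *Ccl5* (4.57), *Ccl22* (3.51), *Fscn1* (3.25), which bundles actin in mature DCs, and *Ccr7* (2.20). It was also higher for 7 of 16 genes of CD40 and NF-kB signaling, led by *Traf1* (2.40) and *Nfkb2* (1.65). Of 18 adhesion and SLAM family genes it was higher for 8, with *Slamf7* at 2.16, and lower for 1. It was lower for 6 of 12 neutrophil genes, among them *Ltf* (-2.55) and *S100a9* (-2.39), and for *Thbd* (-1.19, adjusted p = 0.00136). The neutrophil list nevertheless had a lower median with sTM in both experiments, -1.04 in experiment 3 and -0.69 in experiment 4. The part of experiment, sort and culture in these values was not tested.

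In unsorted DCs 0 of the 9 genes and 0.0% of all genes passed the test with limma, and 4 of the 9 and 940 of all had an unadjusted p under 0.05 (*Cd40* -0.62, *Cd83* -0.52, *Cd80* -0.51 and *Pdcd1lg2* -0.30, adjusted p from 0.932 to 0.999). All 9 estimates were below 0, from -0.62 to -0.17, with a median of -0.30 beside 0.01 for all genes. The means with sTM were lower for 9 genes in experiment 1, for 7 in experiment 2 and for 8 in experiment 3. How many of all genes had lower means was not counted. Arrays with and without sTM stood apart for 0 of the 9 genes in experiment 1, for 5 in experiment 2 and for 9 in experiment 3. The share of all genes that stood apart was not counted. Experiment 1 held 4 arrays on each side and the others 2, so that these counts are not on one scale. *Cd40* read 9.08 and 9.09 without and 8.20 and 8.45 with sTM in experiment 2, and 9.28 and 9.44 against 8.52 and 8.51 in experiment 3. In experiment 1 it read 9.93, 10.03, 10.78 and 10.88 without and 9.09, 9.12, 10.93 and 10.71 with sTM, so that arrays 1-1 and 1-2 were lower and 1-3 and 1-4 overlapped. *Cd83* and *Cd200* split in the same way among the sTM-treated arrays of experiment 1, with 10.08 and 9.87 against 11.11 and 11.42 for *Cd83* and 7.89 and 7.94 against 10.11 and 9.97 for *Cd200*. The part of the cells that carry *Ccr2* in this split was not tested. Without experiment 1, 0 genes passed, and *Cd40* was -0.80 (adjusted p = 0.0562).

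**Figure D4:**
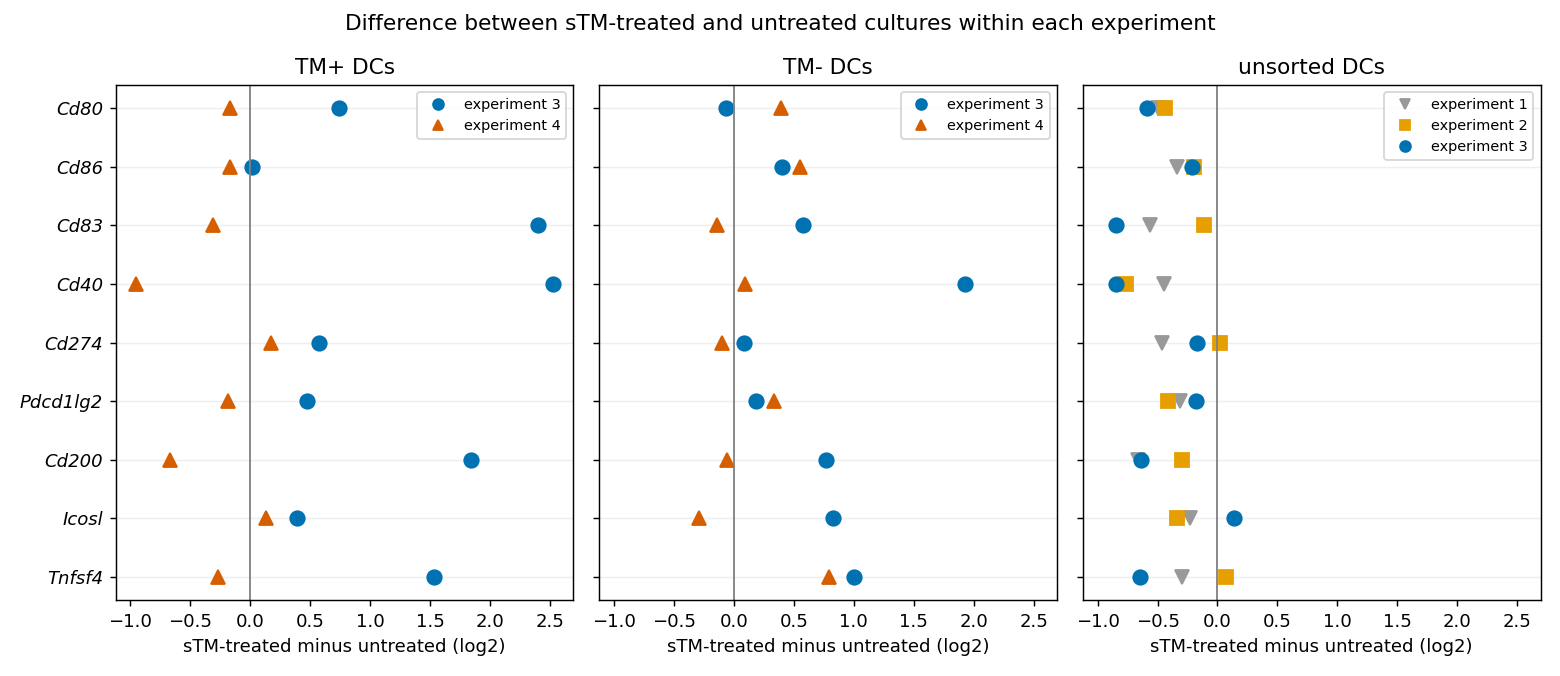
Difference between sTM-treated and untreated cultures (log2, horizontal axis) for each gene within each experiment, in TM+, TM- and unsorted DCs, with 1 symbol per experiment for the difference of the means. In TM+ DCs *Cd40* lies at 2.52 in experiment 3 and at -0.95 in experiment 4, and in unsorted DCs of experiment 3 at -0.85.

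The unsorted DCs were set beside the fractions where both were measured, in sTM-treated cultures of experiment 2 and both kinds of culture of experiment 3. Compared with TM+ DCs, unsorted DCs were higher in *Cd200* (0.81, SE 0.24, adjusted p = 0.0418) and *Cd274* (0.48, SE 0.11, adjusted p = 0.00989) and lower in *Icosl* (-0.70, SE 0.13, adjusted p = 0.00181), beside 2.04% of all genes higher and 6.2% lower. Compared with TM- DCs 0 of the 9 genes and 0.0853% of all genes passed, with 8 of the 9 and 2406 of all genes at an unadjusted p under 0.05. Those 8 all had values below 0, and *Cd40* (-1.41, adjusted p = 0.109) passed without unsorted untreated array 3-1 or 3-2 (-1.62 and -1.65). Without the sTM-treated arrays of experiment 3, 0 passed against TM- DCs and the values were smaller in size, with -0.66 for *Cd40*, -0.43 for *Cd200*, -0.42 for *Cd83* and -0.39 for *Tnfsf4* (adjusted p from 0.781 to 0.804), against -0.81 for *Cd200*, -0.78 for *Cd83* and -0.85 for *Tnfsf4* with them. The call of *Cd200* was lost without any one of 12 of the 18 arrays (0.65 to 0.83, adjusted p from 0.0512 to 0.111), the others being unsorted sTM-treated 3-1 and 3-2, TM+ sTM-treated 3-1 and 3-2, and TM- sTM-treated 2-1 and 3-2.

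In untreated cultures of experiment 3 the unsorted DCs lay near the TM- fraction. *Cd83* read 11.20 and 10.99 in unsorted, 11.16 and 11.19 in TM- and 8.57 and 8.67 in TM+ DCs, and *Cd200* read 9.74 and 9.62 against 9.92 and 9.77 and against 7.59 and 7.65. The sTM-treated cultures of the same experiment differed, and whether the labels of these arrays are right could not be checked from the data. Both unsorted arrays lay below all 4 sorted arrays for 7 of the 9 genes, all but *Cd86* and *Cd274*, beside 10.3% of all genes. *Cd40* read 8.52 and 8.51 in unsorted, 10.12 and 10.26 in TM+ and 11.37 and 11.48 in TM- DCs, and *Tnfsf4* read 6.33 and 6.19 against 7.18 and 7.53 and against 8.18 and 7.86. This held for 0 of 9 genes in untreated cultures of experiment 3 (4.73% of all genes) and for 1 of 9, *Icosl*, in experiment 2 (10.4%). Without the sTM-treated arrays of experiment 3, 7 genes were higher in unsorted than in TM+ DCs (605 higher and 1444 lower of all genes, beside 406 and 1236 with them), among them *Cd83* (1.90, adjusted p = 1.92e-05), *Tnfsf4* (0.93, adjusted p = 0.000363) and *Cd40* (0.87, adjusted p = 0.0358).

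**Figure D5:**
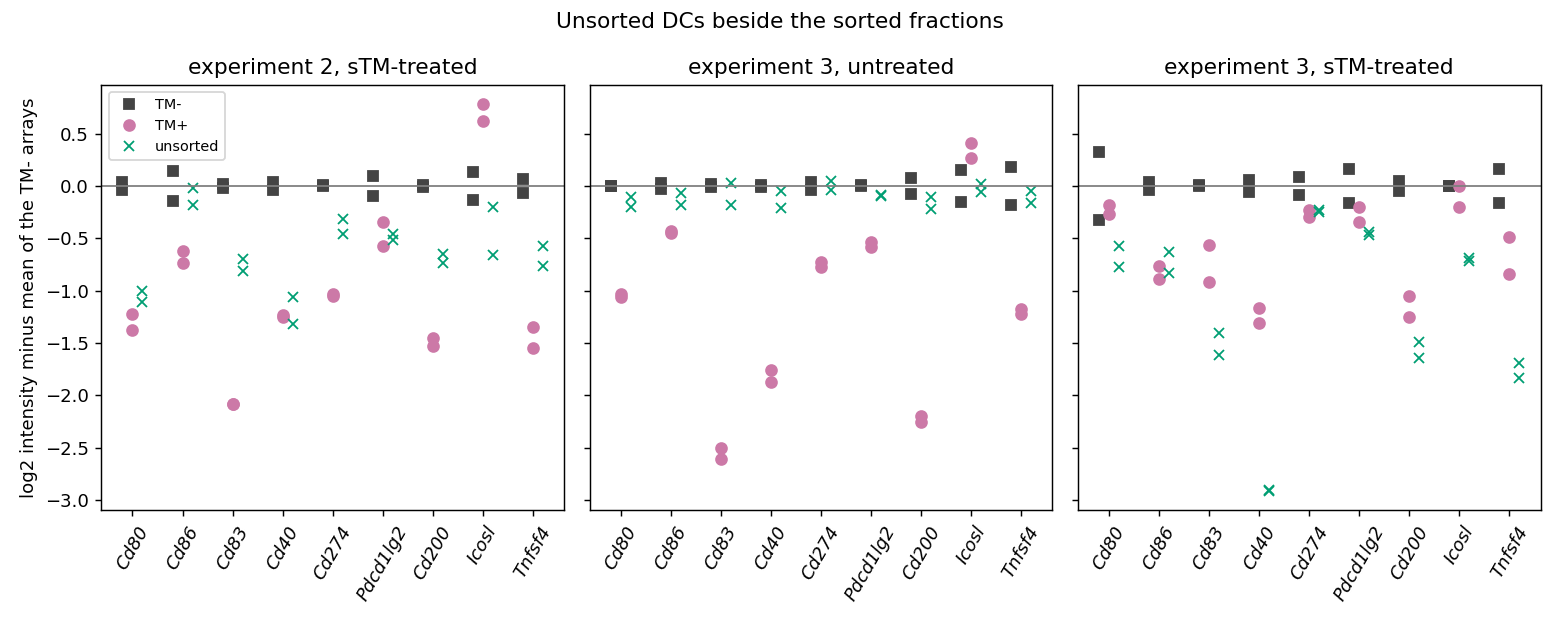
Level of each gene in unsorted, TM+ and TM- arrays relative to the mean of the TM- arrays (log2 difference, vertical axis) in the 3 combinations of experiment and treatment that hold all of them. In sTM-treated cultures of experiment 3 the unsorted arrays lie below both fractions for 7 of 9 genes, with *Cd40* near -2.91.

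The genes most alike in pattern were sought among all genes by Pearson's correlation over the 20 sorted arrays, which share experiments and the sort, so that r is a description. *Cd274* was most like *Atf3* (r = 0.987), a stress-induced transcription factor, *Cd83* most like *Blnk* (0.98), a B cell linker protein, *Cd40* most like *Helz2* (0.976), an interferon-induced helicase, and *Cd200* most like *Ccr4* (0.973), a chemokine receptor. *Cd80* was most like *Rel* (0.946), the NF-kB subunit c-Rel. Over all 36 arrays these values were 0.937, 0.95, 0.934, 0.903 and 0.847. *Cd86* with *Dgat2* (0.928), *Icosl* with *Themis2* (0.889), *Pdcd1lg2* with *Sco1* (0.876) and *Tnfsf4* with *Rnf19b* (0.837) were less close. Among the 9 genes themselves, r over the 20 sorted arrays ranged from -0.33 to 0.94 over the 36 pairs, with a median of 0.48 and 30 pairs above 0.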

How the data were processed

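Labelled RNA of 36 samples was hybridized to Affymetrix Mouse Gene 1.0 ST arrays. The authors corrected, normalized and summarized the arrays with RMA (Affymetrix Power Tools, annotation release 31) and deposited linear intensities. Joint or separate normalization of the experiments is not given in the sources, and no detection calls were used. The log2 of each deposited intensity was taken, with no further scaling or filter. Clusters with 1 symbol were kept and 1 cluster per symbol was tested. The 20 sorted arrays were fitted with limma 3.58.1 (statmod 1.5.0, R 4.3.3) in 4 groups of fraction by treatment, blocked on experiment through an estimated correlation (0.396), and the 16 unsorted arrays on treatment with the same block (0.375). Unsorted arrays were compared with the fractions in 18 arrays, with each combination of experiment and treatment as a fixed term. P-values were adjusted by Benjamini-Hochberg over 19938 genes, and the fits were tested on simulated data. The 9 genes and all lists were chosen with earlier results of these data known. Genes were named as members, as up to 4 of the largest changes of each list past the test, and as the nearest by correlation. Tried beside this were a fixed or absent experiment term, replicate blocks, no dim genes (under the 25th percentile), all clusters, other scalings, array weights, and leaving out arrays and experiments. Figures used matplotlib 3.10.9. The arrays' number limits the precision.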

Additional observations from a re-analysis of the deposited data

Results flagged for a closer look

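*Cd200* in TM- untreated array 3-1 read 9.92, apart from 9.77, 9.77 and 9.75 in the other arrays of its group, and it was the only such gap among 54 tests of a gene in a group, of which chance gives about 1 in 20. The effect of sTM differed between experiments 3 and 4 in 10 of 18 comparisons (9 genes in 2 fractions), by limma in the comparison added after the data had been seen. In TM+ DCs the difference was 3.47 for *Cd40*, 2.71 for *Cd83*, 2.52 for *Cd200*, 1.81 for *Tnfsf4*, 0.91 for *Cd80* and 0.66 for *Pdcd1lg2*, and in TM- DCs it was 1.84 for *Cd40*, 1.12 for *Icosl*, 0.83 for *Cd200* and 0.72 for *Cd83*. The cause was not tested.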

How the results depend on the processing

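Over 14 alternatives other than single arrays, between 6 and 8 genes were lower in TM+ DCs in the mean of both kinds of culture, and 7 without any single array. The count of higher genes, 1, was 0 to 1 without single arrays and 0 with no experiment term, the replicate block (experiment and replicate number), centring on the 75th percentile, quantile normalization, and without experiment 2 or 4. With that replicate block 6 genes were lower, and *Cd86* was -0.36 (adjusted p = 0.0634). To see whether numbers pair the arrays, the difference between the 2 arrays of a group was correlated over genes between groups of an experiment. Of 13 pairs of groups, 5 had a correlation over 0.1 (-0.54 to 0.40). Only 5 of the 13 lay within one kind of culture, and of these 2 were over 0.1 (-0.25 to 0.31). Whether arrays of the same number share a culture cannot be told from so few values. In untreated cultures 4 to 6 genes were lower without single arrays, and 1 was higher with array weights. In sTM-treated cultures 0 to 1 were higher without single arrays, and 1 with experiment as a fixed factor, without dim genes, with array weights, without experiment 3 or its sTM-treated sorted arrays. For sTM in TM+ DCs 2 genes rose with array weights (of all genes 503 rose and 730 fell) and 4 without experiment 4 (386 and 251), beside 76 and 94 in the reported fit. In TM- DCs 2 rose with array weights (443 and 188), 1 without experiment 3 (9 and 2) and 2 without experiment 4 (39 and 28). In the mean 1 rose with experiment fixed (83 and 29), 2 with array weights (848 and 992) and 4 without experiment 4 (305 and 149). The interaction had 1 lower gene with array weights (102 higher and 239 lower of all) and 1 without experiment 3 (116 and 184). Against TM+ DCs, 2 unsorted genes were higher, 1 to 4 without single arrays, 4 without dim genes, 1 over all clusters, 4 with either scaling and 7 without the sTM-treated arrays of experiment 3. Against TM- DCs 0 to 1 were lower without single arrays. Of the differences in the effect of sTM between experiments, 4 to 7 were higher in TM+ and 2 to 4 in TM- DCs (0 to 1 lower) without single arrays. When centred, 4 were higher in TM+ DCs.

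Signs turned for *Pdcd1lg2* in the sort without experiment 3 (0.06), and in untreated cultures with array weights (0.01), without experiment 3 (0.40) or TM+ untreated array 3-1 (0.03) or 3-2 (0.01), with a range of -0.18 to 0.03 without single arrays. *Cd86* turned in untreated cultures with array weights (0.24), without experiment 3 (0.29) and without TM- untreated array 3-1 (0.01; -0.17 to 0.01 without single arrays). Without experiment 3 sTM gave -0.18 for *Cd83* and -0.31 for *Tnfsf4* in TM+ DCs, and -0.46 for *Cd40* and -0.25 for *Cd83* in the mean; without only its sTM-treated sorted arrays *Cd83* was -0.04 in TM+ DCs and -0.12 in the mean, and *Cd40* -0.28. *Cd40* in unsorted against TM+ DCs (0.02) was -0.03, -0.19 and -0.22 without unsorted arrays 2-2, 3-1 and 3-2, and -0.12 and -0.15 without TM+ untreated 3-1 and 3-2 (-0.22 to 0.27 over single arrays). The difference between experiments in the effect of sTM on *Pdcd1lg2* in TM- DCs was 0.02 without TM- sTM-treated array 3-2 (-0.30 to 0.02 over single arrays). The cause was not tested. A replicate block within treatment was not run for unsorted DCs, since each block would hold 1 array. Low signals were not separated from background.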
